A study of Mus musculus with 12 samples.

Results

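The genes described here are the glucocorticoid receptor gene Nr3c1 and 9 genes known to be switched on by glucocorticoids, Fkbp5, Tsc22d3, Zbtb16, Sgk1, Pdk4, Klf9, Mt1, Mt2 and Cdkn1a. They were chosen by name with earlier results of these data known, 10 of the 54134 genes listed. Where a name stood on several gene identifiers the one with most reads was used. All 10 passed the filter on low counts, which left 15585 genes to be tested. RNA-seq was made from whole inguinal white adipose tissue (iWAT), a subcutaneous fat depot, of 12 male C57BL/6J mice on a chow diet. The mice received an adeno-associated virus (AAV) encoding either green fluorescent protein (AAV-GFP, n = 6) or mouse Notum (AAV-Notum, n = 6) at 8 weeks of age, 1e12 genome copies per mouse. NOTUM is a secreted enzyme that removes the lipid from Wnt ligands and so inactivates them. Both viruses used the human thyroxine binding globulin promoter, which drives expression in liver, and no group without virus is among these samples. Tissue was taken 4 weeks after the virus and after a 4 h fast. Each mouse was a library of its own, named here by its group and number. Means are given ± SD over the 6 mice of a group, and SE is the standard error of a log2 fold change.

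The glucocorticoid receptor is a transcription factor that waits in the cytoplasm, held by Hsp90 and its co-chaperones. When corticosterone, the main glucocorticoid of mice, binds it, the receptor enters the nucleus and binds DNA at glucocorticoid response elements. In adipose tissue glucocorticoids act on adipocyte differentiation, lipolysis, insulin action and inflammation. Several target genes feed back on the pathway, and most also answer to other regulators, such as p53 for Cdkn1a, zinc for Mt1 and Mt2, and PPARs and FoxO factors for Pdk4.

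Total counts ran from 14711113 to 21618860 per mouse and did not differ between the groups beyond their spread (two-sided exact permutation test, p = 0.279). RNA integrity numbers were 5.7 to 7.6 in AAV-GFP mice and 6.9 to 7.4 in AAV-Notum mice (exact permutation p = 0.357). RNA of AAV-GFP-2012 was isolated on a later day than that of the other mice. Notum RNA in iWAT was 0.0595 to 0.995 CPM (counts scaled to library size) in AAV-GFP mice. It was 29.3 and 26.6 CPM in AAV-Notum-2032 and AAV-Notum-2041 and 0.457 to 0.905 CPM in the other AAV-Notum mice, so the groups overlapped. This level is not a check of the liver transgene. Markers of adipocytes were abundant in every mouse, with a sum over 8 genes of 19901 to 46627 CPM.

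The libraries differed in their content of other tissues. The sum of 15 lymphoid marker genes was 10.4 CPM in AAV-GFP-2014, 18 CPM in AAV-GFP-2011 and 461 CPM in AAV-GFP-2012, below every AAV-Notum mouse, and 710 to 3149 CPM in the other mice. The sum of 8 hepatocyte markers reached 5420 CPM in AAV-GFP-2013, and that of 8 skeletal muscle markers reached 3765 CPM in AAV-Notum-2042. In bulk tissue, fewer cells of a type cannot be told apart from less RNA per cell. Values without AAV-GFP-2014 and AAV-GFP-2011, and with the lymphoid score as a covariate, are given where they move a log2 fold change by over 1.5 times and beside some other results, and the part of tissue content in the differences was not tested.

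All 10 genes had a lower mean level in AAV-Notum mice, with log2 fold changes from -1.09 for Zbtb16 to -0.30 for Nr3c1. Over all genes tested, 48.8% had a log2 fold change below 0. The median over the 10 genes was -0.47, against 0.0077 over all genes. None of the 10 passed an adjusted p of 0.05 in edgeR's quasi-likelihood test (lowest adjusted p = 0.140), a limit that 0.0513% of all genes passed as lower and 0 genes as higher. At an unadjusted p under 0.05, 4 of the 10 were lower, namely Zbtb16, Klf9, Sgk1 and Pdk4, where 9.54% of all genes tested were lower and 4.64% higher. DESeq2 called 1 of the 10, Zbtb16, where it called 2.32% of all genes as lower. None of the 10 separated the groups completely, as 0.693% of all genes did with every AAV-Notum mouse below every AAV-GFP mouse. The direction was the same for each of the 10 genes in every alternative fit, including each fit without 1 mouse.

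Marker genes of the cell types in the tissue were compared in the same way, and edgeR called 0 of them at an adjusted p of 0.05. Of the markers, 7 of 8 for adipocytes (median log2 fold change -0.25), 7 of 8 for endothelial cells (-0.27), 6 of 8 for stromal progenitors (-0.25), 6 of 6 for Schwann cells (-0.46) and 8 of 8 for hepatocytes (-2.80) were lower in AAV-Notum mice. At an unadjusted p under 0.05, 2 of the endothelial, 3 of the stromal progenitor and 2 of the hepatocyte markers were lower, as was Mrc1, 1 of 8 macrophage markers (-0.40), where 9.54% of all genes were lower, and Kit, 1 of 5 tested mast cell markers (0.51), was higher, where 4.64% of all genes were. Mrc1 and Kit were named after their values were seen. Of their lists, 5 macrophage markers were higher and 3 lower (median log2 fold change 0.18), and 4 mast cell markers were higher and 1 lower (0.23). DESeq2 called 2 of the stromal progenitor markers, where it called 2.32% of all genes as lower. All 15 lymphoid (0.99) and all 8 skeletal muscle markers (1.39) were higher, 0 of them at an edgeR p under 0.05 before adjustment and 0 called by DESeq2. Their part in the lower levels of the 10 genes was not tested.

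**Figure D1:**
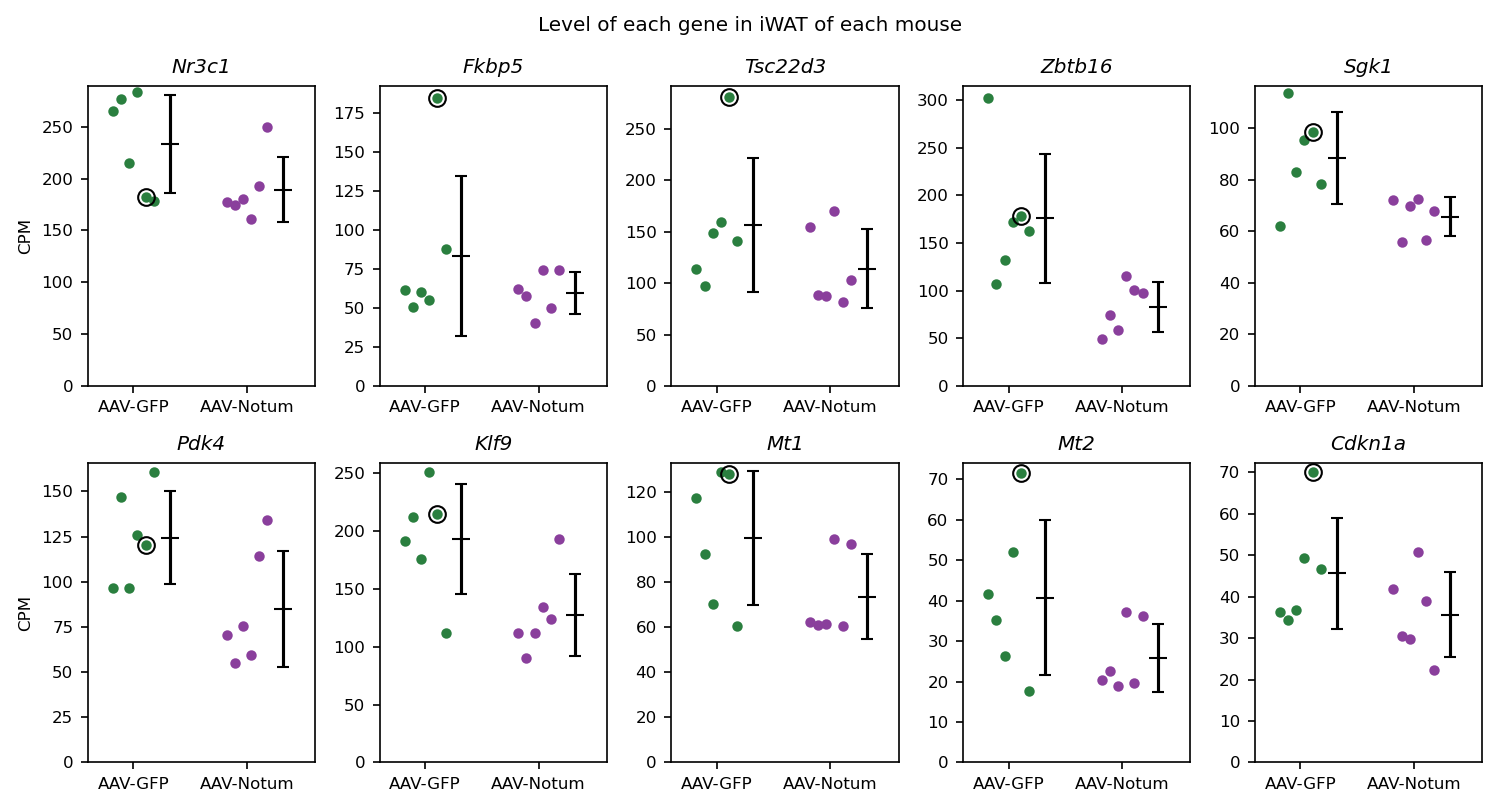
Level of each gene as CPM (y axis, from 0) in each mouse. Points are mice, green for AAV-GFP and purple for AAV-Notum, bars are mean ± SD of 6 mice, and the ringed point is AAV-GFP-2021, which at 185 CPM of Fkbp5 and 281 CPM of Tsc22d3 lies above all other mice.

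Nr3c1 (ENSMUSG00000024431), the receptor itself, lies on chromosome 18 of GRCm38 from 39410545 to 39519421 on the minus strand. Its level was 265, 277, 215, 283, 183 and 178 CPM in AAV-GFP-2011, AAV-GFP-2012, AAV-GFP-2013, AAV-GFP-2014, AAV-GFP-2021 and AAV-GFP-2022, the order used below for this group. It was 177, 174, 180.1, 161, 193 and 249 CPM in AAV-Notum-2031, AAV-Notum-2032, AAV-Notum-2033, AAV-Notum-2034, AAV-Notum-2041 and AAV-Notum-2042, also the order used below. The AAV-GFP mice were spread over a wide range, 3 of them above every AAV-Notum mouse, and AAV-Notum-2042 stood apart from its group. Means were 233 ± 47.6 CPM and 189 ± 31.3 CPM, a log2 fold change of -0.30 (SE 0.15, edgeR adjusted p = 0.366, exact permutation p = 0.0779). The 4 mice with the lowest lymphoid marker sums, AAV-GFP-2014, AAV-GFP-2011, AAV-GFP-2012 and AAV-Notum-2042, were the 4 mice with the highest Nr3c1. With the lymphoid score as a covariate the log2 fold change of Nr3c1 was -0.065, and without AAV-GFP-2011 and AAV-GFP-2014 it was -0.18.

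Fkbp5, Tsc22d3, Zbtb16 and Klf9 encode proteins that feed back on the receptor or regulate transcription in turn. Fkbp5 (ENSMUSG00000024222, chromosome 17, 28399094 to 28517527) encodes a co-chaperone that lowers the receptor's affinity for its hormone. Its level was 61.5, 50.5, 60.6, 55.3, 185 and 87.6 CPM with AAV-GFP and 62.2, 57.7, 40.5, 74.3, 49.7 and 74.4 CPM with AAV-Notum. Apart from AAV-GFP-2021 the groups occupied much the same range. The means of 83.4 ± 51.3 and 59.8 ± 13.5 CPM gave a log2 fold change of -0.48 (SE 0.31, edgeR adjusted p = 0.459, exact permutation p = 0.340). It was -0.08 without AAV-GFP-2021, -0.73 with the lymphoid score as a covariate and -0.69 without AAV-GFP-2014 and AAV-GFP-2011.

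Tsc22d3 (ENSMUSG00000031431, X chromosome, 140539528 to 140600659) encodes GILZ, a mediator of the anti-inflammatory action of glucocorticoids. AAV-GFP mice had 114, 96.7, 149, 159.8, 281 and 141 CPM and AAV-Notum mice 155, 88.2, 87.3, 169.8, 81.2 and 103 CPM. AAV-GFP-2021 was again the highest mouse, and 3 AAV-Notum mice lay under the whole AAV-GFP group. The log2 fold change of -0.46 (SE 0.27, edgeR adjusted p = 0.430, exact permutation p = 0.147) was -0.21 without AAV-GFP-2021.

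Zbtb16 (ENSMUSG00000066687, chromosome 9, 48654297 to 48836222) encodes PLZF, a zinc finger transcription factor, and showed the largest difference of the 10 genes. AAV-GFP mice had 302, 107, 132, 172, 178 and 163 CPM and AAV-Notum mice 48.7, 74.7, 58.7, 115, 101 and 97.6 CPM. Of the AAV-Notum mice, 5 lay under the whole AAV-GFP range, and AAV-Notum-2034 was above AAV-GFP-2012 alone. The mean was 176 ± 67.4 CPM with AAV-GFP and 82.5 ± 26 CPM with AAV-Notum, a fitted ratio of 0.47. The log2 fold change was -1.09 (SE 0.27, unadjusted p = 0.00145, edgeR adjusted p = 0.140), and the two-sided exact permutation test gave p = 0.00433, where 0.00216 is the smallest p that 6 mice against 6 allow. DESeq2 gave an adjusted p of 0.00851. Leaving out 1 mouse gave log2 fold changes from -1.21 to -0.87. The fold change was -0.83 with the lymphoid score as a covariate and -0.82 without AAV-GFP-2011 and AAV-GFP-2014.

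Klf9 (ENSMUSG00000033863, chromosome 19, 23141226 to 23168134) encodes a Krüppel-like transcription factor. AAV-GFP mice had 191, 213, 176, 251, 215 and 112 CPM and AAV-Notum mice 112, 89.9, 112, 134, 124 and 193 CPM. AAV-GFP-2022 and AAV-Notum-2042 each lay in the range of the other group, and the remaining mice of both groups did not overlap. The log2 fold change was -0.60 (SE 0.21, unadjusted p = 0.0131, edgeR adjusted p = 0.236, exact permutation p = 0.0411). With the lymphoid score as a covariate it was -0.36.

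Sgk1 (ENSMUSG00000019970, chromosome 10, 21882184 to 21999903) encodes a serine/threonine kinase that acts on ion channels and FoxO factors. The promoter windows of the genes other than Nr3c1 and Zbtb16, 16 windows of 300 bases in all (250 before and 50 after a RefSeq start site, GRCm38.p6), were searched for the glucocorticoid response element spelled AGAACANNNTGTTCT. An exact match to its 12 defined bases was found in 1 of the 16 windows, at a start site of Sgk1, and in 3 of 32851 promoter windows of the table (0.00913%). With up to 2 mismatches the element was in 2 of the 16 windows, both of Sgk1, and in 1.84% of all windows. The 16 windows belong to 8 genes, and Sgk1 has more of them than any other, so these are not shares of genes. The 6 bases AGAACA alone, counted on both strands and also inside the full element, was in 4 of the 16 windows and in 19.0% of all windows. The 250 bases before that Sgk1 start, chr10:21993640-21993889 on the plus strand, are shown with the element in capitals. They hold no annotated exon and lie in introns of 5 longer Sgk1 transcripts, and the element runs from 21993701 to 21993715 and begins 189 bases before the start.
Sgk1: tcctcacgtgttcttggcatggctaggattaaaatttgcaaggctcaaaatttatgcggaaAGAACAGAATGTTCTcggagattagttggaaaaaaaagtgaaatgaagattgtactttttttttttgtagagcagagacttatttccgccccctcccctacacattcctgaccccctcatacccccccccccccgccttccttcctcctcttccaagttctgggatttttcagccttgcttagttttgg

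The match is of letters alone, and no measurement of receptor binding was made in these samples. Sgk1 stood at 62.0, 114, 83.1, 95.4, 98.6 and 78.6 CPM with AAV-GFP and at 72.1, 55.8, 69.8, 72.4, 56.7 and 67.8 CPM with AAV-Notum. AAV-GFP-2011 alone lay inside the AAV-Notum range, and the other 5 AAV-GFP mice were above every AAV-Notum mouse. Means were 88.5 ± 17.9 and 65.8 ± 7.56 CPM, and among AAV-Notum mice Sgk1 had the smallest spread relative to its mean of the 10 genes. The log2 fold change was -0.43 (SE 0.13, unadjusted p = 0.00770, edgeR adjusted p = 0.212, exact permutation p = 0.0238), and it was -0.46 with the lymphoid score as a covariate.

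Pdk4 (ENSMUSG00000019577, chromosome 6, 5483351 to 5496309) encodes a kinase that shuts off pyruvate dehydrogenase and so spares glucose. Its level was 96.6, 147, 96.7, 126, 120.3 and 161 CPM with AAV-GFP and 70.8, 55.0, 75.6, 59.6, 114 and 134 CPM with AAV-Notum. AAV-Notum-2041 and AAV-Notum-2042 lay among the AAV-GFP mice, and the other 4 were below all of them. The log2 fold change was -0.55 (SE 0.23, unadjusted p = 0.0324, edgeR adjusted p = 0.312, exact permutation p = 0.0390).

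Mt1 (ENSMUSG00000031765, 94179082 to 94180327) and Mt2 (ENSMUSG00000031762, 94172664 to 94173568) are neighbours on chromosome 8 and encode metallothioneins, small proteins that bind zinc and copper. Besides the glucocorticoid receptor, the zinc sensor MTF1 drives both through metal response elements. The element's core, searched as TGCGCNC or TGCACNC on either strand, occurred 4 times in the 300-base window of Mt2 and 3 times in that of Mt1. At least 1 core was found in 25.7% of all windows, at least 2 in 7.11% and at least 4 in 0.517%. The 250 bases before each start, chr8:94172368-94172617 for Mt2 and chr8:94178839-94179088 for Mt1, both on the plus strand, are shown with the cores before the start in capitals, 3 for Mt2 and 1 for Mt1. The Mt2 window lies in an exon of the annotated transcript Gm45774-201, and the last 7 bases of the Mt1 window are in the first exon of Mt1 by GENCODE.
Mt2: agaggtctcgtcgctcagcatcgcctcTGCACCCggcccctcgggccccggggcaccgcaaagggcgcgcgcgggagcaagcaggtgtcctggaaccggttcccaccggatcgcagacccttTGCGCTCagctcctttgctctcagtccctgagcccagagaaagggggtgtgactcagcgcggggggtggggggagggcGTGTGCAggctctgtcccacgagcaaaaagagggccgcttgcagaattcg
Mt1: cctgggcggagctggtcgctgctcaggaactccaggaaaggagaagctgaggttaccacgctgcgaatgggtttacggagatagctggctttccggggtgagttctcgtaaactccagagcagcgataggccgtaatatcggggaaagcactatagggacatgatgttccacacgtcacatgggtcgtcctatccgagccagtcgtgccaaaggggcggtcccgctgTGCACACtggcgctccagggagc

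Mt1 was measured at 118, 92.4, 70.5, 129, 128 and 60.8 CPM with AAV-GFP and at 62.5, 61.0, 61.7, 99.2, 60.8 and 97.1 CPM with AAV-Notum. Mt2 was measured at 41.6, 35.1, 26.3, 52.1, 71.5 and 17.7 CPM with AAV-GFP and at 20.3, 22.7, 19.0, 37.1, 19.6 and 36.3 CPM with AAV-Notum. In both genes AAV-Notum-2034 and AAV-Notum-2042 were the 2 high mice of their group, AAV-GFP-2022 was the low mouse of its group, and the groups overlapped. The log2 fold changes were -0.44 for Mt1 (SE 0.22, edgeR adjusted p = 0.376, exact permutation p = 0.113) and -0.66 for Mt2 (SE 0.31, adjusted p = 0.362, exact permutation p = 0.119). With the lymphoid score as a covariate that of Mt1 was -0.18, without AAV-GFP-2014 and AAV-GFP-2011 it was -0.26, and without AAV-GFP-2021 that of Mt2 was -0.42. The copies are similar, so reads may have been split between them. The ratio of Mt1 to Mt2 reads was 1.80 to 3.43 in AAV-GFP mice and 2.67 to 3.25 in AAV-Notum mice.

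Cdkn1a (ENSMUSG00000023067, chromosome 17, 29090976 to 29100727) encodes the cell cycle inhibitor p21. Its level was 36.3, 34.4, 36.9, 49.4, 70.0 and 46.7 CPM with AAV-GFP and 41.7, 30.6, 29.7, 50.9, 39.0 and 22.2 CPM with AAV-Notum. The highest mouse was AAV-GFP-2021, as for Fkbp5, Tsc22d3 and Mt2, and the other mice of both groups shared most of their range. The log2 fold change of -0.35 (SE 0.22, edgeR adjusted p = 0.445, exact permutation p = 0.162) was -0.19 without AAV-GFP-2021.

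**Figure D2:**
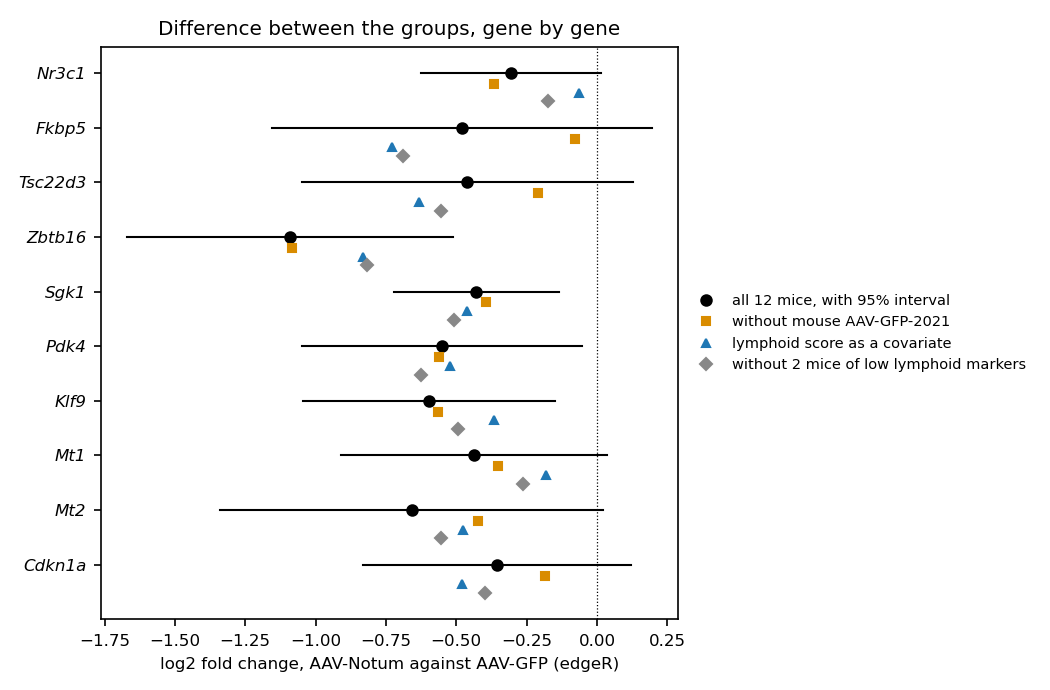
Log2 fold change of AAV-Notum against AAV-GFP (x axis) for each gene, from edgeR. Circles with lines are the fit of all 12 mice with its 95% interval, squares leave out AAV-GFP-2021, triangles carry the lymphoid score as a covariate and diamonds leave out AAV-GFP-2011 and AAV-GFP-2014; all symbols lie below 0, and the square of Fkbp5 at -0.08 and the triangle of Nr3c1 at -0.065 lie nearest to it.

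Seen by mouse, AAV-Notum-2032, AAV-Notum-2033 and AAV-Notum-2041 were below the AAV-GFP mean of log2 CPM in all 10 genes. AAV-Notum-2042 was below it in 5 genes and AAV-Notum-2034 in 6, and the median difference from that mean was -0.01 and -0.13 in these mice, against -0.72 to -0.49 in the other 4. Among the AAV-GFP mice, AAV-GFP-2021 had the highest level of all 12 mice in 4 genes and AAV-GFP-2014 in 3. AAV-GFP-2021 was not at either end of the 12 mice for the lymphoid sum (1599 CPM), the hepatocyte sum (84.9 CPM) or the muscle sum (21.7 CPM), and its RNA integrity number was 7.2. By contrast, AAV-Notum-2042 had the highest muscle (3765 CPM) and adipocyte sums (46627 CPM) of the 12 mice. AAV-Notum-2034 had the lowest muscle sum (7.98 CPM) and AAV-GFP-2014 the lowest lymphoid sum (10.4 CPM).

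**Figure D3:**
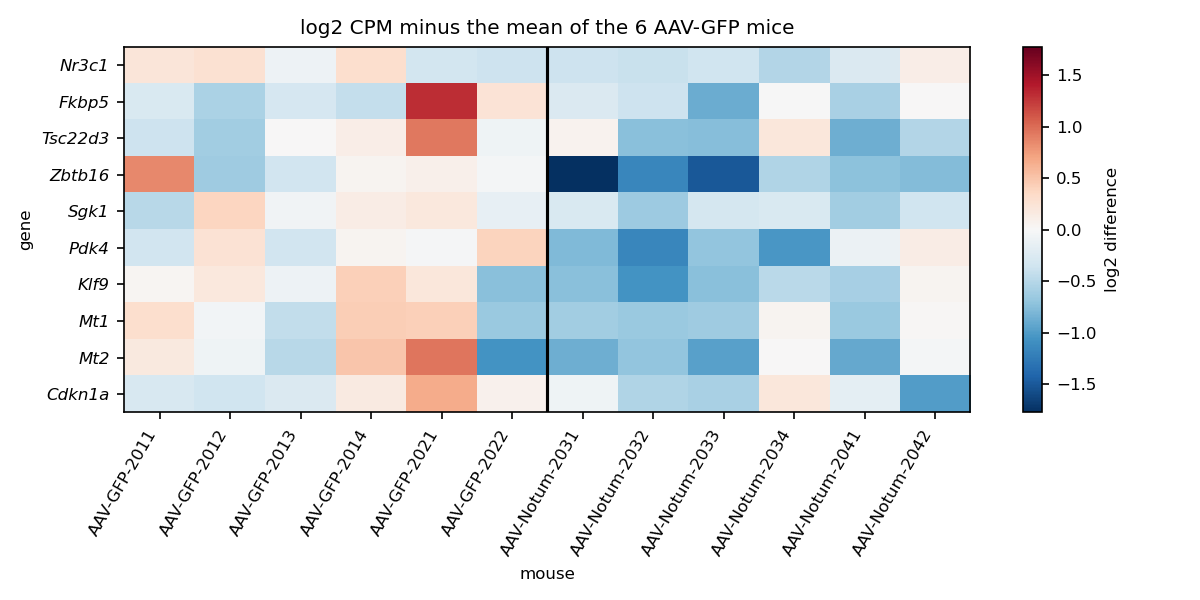
Log2 CPM of each gene (rows) in each mouse (columns) minus the mean of the 6 AAV-GFP mice, red above and blue below. The black line divides AAV-GFP (left) from AAV-Notum mice (right). AAV-GFP-2021 is red for Fkbp5, Tsc22d3 and Mt2. By their median over the genes AAV-Notum-2034 and AAV-Notum-2042 are paler than the other 4 AAV-Notum mice. This does not hold in every row, as AAV-Notum-2034 is the lowest of all mice for Nr3c1 and AAV-Notum-2042 for Cdkn1a.

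Per kilobase of annotated exon, the levels in AAV-GFP mice ran in the order Mt1 (80.1 ± 23.9 CPM per kb), Mt2 (69.3 ± 32.7), Klf9 (40.1 ± 9.83), Tsc22d3 (36.1 ± 15), Pdk4 (35.5 ± 7.40), Zbtb16 (33.3 ± 12.7), Nr3c1 (30.4 ± 6.20), Sgk1 (18.1 ± 3.65), Cdkn1a (12.8 ± 3.77) and Fkbp5 (8.81 ± 5.42). The step from Nr3c1 to Sgk1 and that from Sgk1 to Cdkn1a exceeded the SDs of both neighbours, and the other steps did not. In AAV-Notum mice Nr3c1 (24.6 ± 4.08 CPM per kb) stood above Pdk4 (24.2 ± 9.12) and Zbtb16 (15.6 ± 4.93), and the other ranks were the same. Exons of all annotated transcripts were joined, which for Mt1 covered its whole annotated span (1.246 kb) and for Mt2 only a part (0.588 kb). The values per kilobase depend on that choice.

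The genes were also compared with each other across the 12 mice, on log2 CPM with group means removed. Of 45 pairs, 36 had a correlation above 0 and the median Pearson's r was 0.24. An adjusted p under 0.05 was reached by 2 pairs (permutation within groups, adjusted over 45 pairs). Mt1 and Mt2 had r = 0.958 (permutation p = 1.0e-04, adjusted p = 0.00450), rho = 0.923 (permutation p = 0.000990, adjusted p = 0.0445) and r = 0.945 without the 2 mice farthest from the median of Mt1. Klf9 and Mt1 had r = 0.817 (permutation p = 0.00108, adjusted p = 0.0243), rho = 0.804 (permutation p = 0.00261, adjusted p = 0.0587) and r = 0.669 without 2 mice. Klf9 and Mt2 had r = 0.782 (permutation p = 0.00420, adjusted p = 0.0630), rho = 0.790 (permutation p = 0.00408, adjusted p = 0.0612) and r = 0.549 without 2 mice. Tsc22d3 and Cdkn1a had r = 0.772 (permutation p = 0.00628, adjusted p = 0.0670), rho = 0.671 (permutation p = 0.0255, adjusted p = 0.287) and r = 0.460 without 2 mice. Fkbp5 and Tsc22d3, both highest in AAV-GFP-2021, had r = 0.775 (permutation p = 0.00745, adjusted p = 0.0670), rho = 0.601 (permutation p = 0.0468, adjusted p = 0.359) and r = 0.638 without 2 mice. Nr3c1 had its highest r with Klf9, 0.689 (permutation p = 0.0177, adjusted p = 0.132), with rho = 0.580 (permutation p = 0.0558, adjusted p = 0.359) and r = 0.424 without 2 mice. The most negative r was that of Nr3c1 with Cdkn1a, -0.65 (permutation p = 0.0262, adjusted p = 0.169), with rho = -0.59 (permutation p = 0.0533, adjusted p = 0.359) and r = -0.67 without 2 mice. The r of Nr3c1 with Fkbp5 was -0.51 (permutation p = 0.125, adjusted p = 0.433), with rho = -0.46 (permutation p = 0.158, adjusted p = 0.470) and r = -0.76 without 2 mice. By Spearman's rho 1 pair passed, and without 2 mice 0 pairs did, where 10 mice were left. The 5 genes most like Fkbp5 among 14429 genes of at least 1 CPM were Foxo1 (r = 0.880), Anp32b (r = 0.863), Gemin6 (r = 0.856), Tamm41 (r = 0.840) and Manba (r = 0.839), given as a description over 12 mice. Foxo1 had 245 CPM in AAV-GFP-2021 and 123 to 181 CPM in the other mice, and without that mouse its r with Fkbp5 was 0.708.

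Genes that hold or assist the receptor had log2 fold changes from -0.35 to 0.10. Of 9 chaperone genes, 8 were lower and 1 was higher, with a median log2 fold change of -0.12. Hspa8, the constitutive Hsp70, was the 1 of 9 with an unadjusted p under 0.05, near the 9.54% of all genes that were lower at that limit (145.7 ± 20.5 to 114 ± 13.2 CPM, log2 fold change -0.35, edgeR adjusted p = 0.179). Next by p stood Hsp90aa1 (log2 fold change -0.15) and Ppid (-0.14). Of 11 cofactor genes, 0 had an edgeR p under 0.05 before adjustment, their median was 0.03, and the smallest p values were those of Ncor1 (log2 fold change -0.11), Smarca4 (0.07) and Med1 (0.09).

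Among 8 genes that make, move, break down or also bind the hormone (the mineralocorticoid receptor gene Nr3c2 is one), 7 were lower, 3 of them at an unadjusted p under 0.05, and DESeq2 called 2, H6pd and Abcb1a, where 9.54% of all genes were lower at that limit and DESeq2 called 2.32%. H6pd, which supplies the NADPH that 11β-hydroxysteroid dehydrogenase 1 needs to regenerate active hormone, was 459 ± 148 CPM with AAV-GFP and 263 ± 48.2 CPM with AAV-Notum (log2 fold change -0.80, edgeR adjusted p = 0.152, exact permutation p = 0.0108). Hsd11b1, the gene of that dehydrogenase and named after its value was seen, was the 1 gene of the list that was higher (262 ± 36.2 to 313 ± 64.7 CPM, log2 fold change 0.26, edgeR adjusted p = 0.413). Abcb1a, a pump that exports steroids, had a log2 fold change of -0.53 (edgeR adjusted p = 0.131), and Sult1a1, a sulfotransferase, -0.56 (adjusted p = 0.344).

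A list of 26 other glucocorticoid target genes was also lower in most members, 21 of 26, with a median log2 fold change of -0.52. Whether each of these genes is induced by glucocorticoids in inguinal fat was not tested. Of these genes 12 were lower and 0 higher at an unadjusted p under 0.05 (9.54% of all genes were lower at that limit), and 3 separated the groups completely (0.693% of all genes did so in this direction). Like the other gene lists here, this list was chosen with earlier results of these data known, so its counts are no test of the list. In edgeR 0 of the 26 passed an adjusted p of 0.05, while DESeq2 called 7, all lower, where it called 2.32% of all genes, and limma-voom called 0. Map3k6, a stress kinase, had 56.3 ± 14.69 CPM with AAV-GFP and 27.7 ± 6.01 CPM with AAV-Notum (log2 fold change -1.02, SE 0.19, edgeR adjusted p = 0.0906). Every AAV-Notum mouse, at 20.9 to 36.2 CPM, was below every AAV-GFP mouse, at 37.7 to 77.8 CPM. Cebpd, a transcription factor of early adipocyte differentiation, had a log2 fold change of -0.98 (SE 0.22, edgeR adjusted p = 0.124).

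Cd163, a scavenger receptor of macrophages, had 61.5 ± 13 CPM with AAV-GFP and 32 ± 7.04 CPM with AAV-Notum, again without overlap (log2 fold change -0.94, SE 0.16, edgeR adjusted p = 0.0696). The sum of 8 macrophage markers was 333 to 1404 CPM with AAV-GFP and 792 to 1684 CPM with AAV-Notum, with 5 markers higher and 3 lower. The most abundant of them was Lyz2 (555 ± 285 CPM with AAV-GFP and 826 ± 199 CPM with AAV-Notum), and Mrc1 was among the lower ones (log2 fold change -0.40). The third gene without overlap, named after its values were seen, was Hif3a (3.56 ± 2.58 to 1.57 ± 0.214 CPM, log2 fold change -1.18, edgeR adjusted p = 0.179). Per1, the circadian clock gene, named likewise, had a log2 fold change of -0.73 (adjusted p = 0.149). At the other end stood Bcl6, also named after its value was seen, with a log2 fold change of 0.62 and an interval that included 0. With the lymphoid score as a covariate 11 of the 26 were lower at an unadjusted p under 0.05 and the median was -0.29, and 5.04% of all genes were lower at that limit. Without AAV-GFP-2011 and AAV-GFP-2014 it was 10 of the 26, against 4.95% of all genes.

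**Figure D4:**
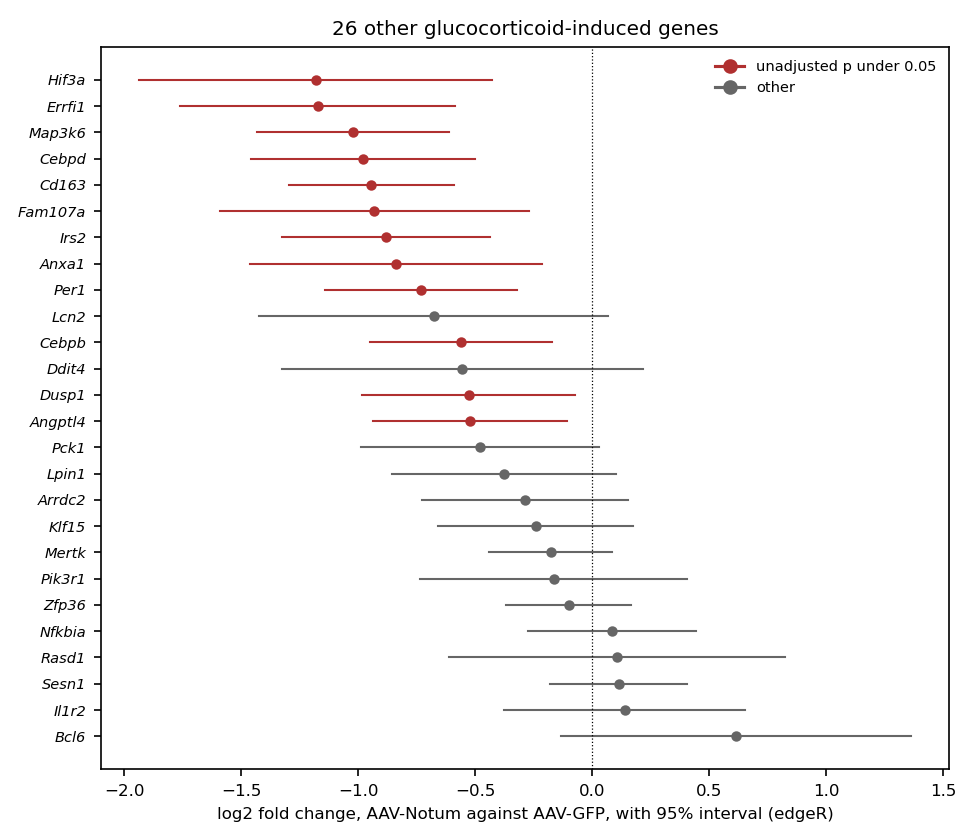
Log2 fold change of AAV-Notum against AAV-GFP (x axis) for 26 other glucocorticoid target genes, with 95% intervals from edgeR. Red marks the 12 genes with an unadjusted p under 0.05, all of them below 0; 21 of the 26 points lie below 0.

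Genes of the other regulators that act on these targets were split in direction, and 0 of those named passed an adjusted p of 0.05 in edgeR. At an unadjusted p under 0.05, 9.54% of all genes were lower and 4.64% higher, and DESeq2 called 2.32% as lower and 0.531% as higher. Among 5 tested genes of the metal response other than Mt1 and Mt2, with the sensor gene Mtf1 counted, 3 were lower, 1 of them at an unadjusted p under 0.05, and 2 higher (median log2 fold change -0.07, 0 called by DESeq2). Slc39a10, a zinc importer, had a log2 fold change of -0.26 (edgeR adjusted p = 0.225) without overlap of the groups, Slc39a14 had -0.23 and Gclc -0.07. Among 10 p53 target genes, 6 were higher and 4 lower, 1 in each direction at an unadjusted p under 0.05 and called by DESeq2 (median 0.09). Sesn2, a stress-induced sestrin, had a log2 fold change of -0.91 (edgeR adjusted p = 0.117). Its groups did not overlap either, at 25.1 to 35.1 CPM with AAV-Notum and 37.3 to 81.3 CPM with AAV-GFP. Bbc3, which encodes the cell death protein PUMA, had 0.51 (adjusted p = 0.140) and Bax 0.18.

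Among 9 tested FoxO genes and targets, 5 were lower, among them the factors' own genes Foxo1, Foxo3 and Foxo4 (log2 fold changes -0.04, -0.14 and -0.24), 2 of the 5 at an unadjusted p under 0.05 and 1 called by DESeq2, and 4 were higher (median -0.04). Txnip, a thioredoxin-binding protein that limits glucose uptake, was lower in every AAV-Notum mouse (1105 to 1343 CPM) than in every AAV-GFP mouse (1597 to 3108 CPM). This was so for 0.693% of all genes. The log2 fold change of Txnip was -0.89 (SE 0.18, edgeR adjusted p = 0.102). Cited2 had -0.40 (adjusted p = 0.263) and Bcl2l11 0.51 (adjusted p = 0.352).

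Relatives of the 10 genes did not follow one direction. Of 13 tested relatives 7 were lower, 3 of them at an unadjusted p under 0.05, and 6 higher, 1 of them at that limit, with a median log2 fold change of -0.08. DESeq2 called 1 in each direction, Klf4 and Pdk1, and edgeR 0. Of all genes, 9.54% were lower and 4.64% higher at that unadjusted limit, and DESeq2 called 2.32% as lower and 0.531% as higher. Pdk1, a paralogue of Pdk4, was higher in every AAV-Notum mouse (105 to 142 CPM) than in every AAV-GFP mouse (68.7 to 92.9 CPM), as were 0.398% of all genes. Its log2 fold change was 0.55 (SE 0.09, edgeR adjusted p = 0.0686), opposite in sign to Pdk4. The paralogues Pdk2 (log2 fold change -0.42) and Pdk3 (-0.15), named after their values were seen, were lower, as Pdk4 was. Klf4 (log2 fold change -0.55, adjusted p = 0.136) and Cdkn1c (-0.73, adjusted p = 0.214), relatives of Klf9 and Cdkn1a, were lower. For Klf4 every AAV-Notum mouse (31.6 to 44.7 CPM) was below every AAV-GFP mouse (47.3 to 75.3 CPM), as for 0.693% of all genes.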

How the data were processed

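RNA was isolated from iWAT of 12 mice, 6 per group, and sequenced as single-end 50-base reads, and the authors mapped reads to mm10 with STAR 2.3.1. The authors deposited a table of counts per gene without normalization, used here, and a table of normalized log2 values (log2 of the count divided by a size factor, plus 1), used as an alternative. The program and gene annotation behind the counts, and their use of strand, are not given in the sources used here, so overlapping antisense genes may share reads. In the normalized table, 100% of the values from 0.5 to 1000 reads came out as whole reads within 0.1.

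For the tests, R 4.3.3 and edgeR 4.0.16 were run on the counts, with these steps: filterByExpr (minimum count 10, minimum total 15), TMM, glmQLFit and a two-sided quasi-likelihood test with Benjamini-Hochberg adjustment over 15585 genes and a threshold of 0.05. CPM are scaled to TMM-normalized library sizes, with a prior count of 2 on the log2 scale. Exact permutation tests were two-sided over all 924 assignments of 12 mice to groups of 6, on mean log2 CPM. Correlations used 100000 permutations within groups, in Python 3.11.15 with scipy 1.17.1. Total counts of 14711113 to 21618860 per mouse put 286 to 6098 reads behind each value of the 10 genes. The fits were tested on simulated data.

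The members and gene lists were chosen with earlier results of these data known. The genes named are the 10 members, and in each list of chaperones, cofactors, steroid handling, other targets, other regulators and relatives those with an adjusted p under 0.05 and the 3 of smallest p. Genes named after their values were seen are marked. Cell type lists not printed elsewhere gave summed ranges of 674 to 1091 CPM (AAV-GFP) and 626 to 855 CPM (AAV-Notum) for endothelial, 1763 to 2831 and 1539 to 2024 for stromal progenitor, 19.2 to 68.8 and 40.9 to 62.1 for mast cell and 127 to 315 and 102 to 315 for Schwann cell markers, and those of hepatocyte markers were 45.7 to 5420 and 20.1 to 778. The list for PPARs is not reported here. Alternatives were DESeq2 1.42.0, limma-voom (limma 3.58.1), size factors by RLE, looser (1 count in all) and stricter (10 counts in every mouse) filters, covariates (RNA integrity number, or lymphoid score as mean log2 CPM of 15 markers), a fit of the deposited normalized values and one of the reads recovered from them, and fits without 1 mouse. Chosen after seeing the data were the fit without the 2 mice of lowest lymphoid score and the count of other targets under each fit. Promoters are from RefSeq (GRCm38.p6) and positions from GENCODE vM21 of GRCm38. Each mouse is a separate animal.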

Additional observations from a re-analysis of the deposited data

Results flagged for a closer look

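Dixon's ratio, the distance of a mouse to the next over the whole range, was taken on CPM in 20 groups of 6 mice. In 4 of these groups a mouse stood apart by this ratio. Chance gives about 1 in 20 only for normally distributed values in independent groups. The groups here share mice, so the count of 4 cannot be set against that rate. On log2 CPM, the scale of the permutation tests, the ratio was lower in each of the 4 groups. Nr3c1 was 249 CPM in AAV-Notum-2042, against 161 to 193 CPM in the other 5 AAV-Notum mice (gap ratio 0.639). Fkbp5 was 185 CPM in AAV-GFP-2021, against 50.5 to 87.6 CPM in the other 5 AAV-GFP mice (gap ratio 0.723). Tsc22d3 was 281 CPM in the same mouse, against 96.7 to 159.8 CPM in the others (gap ratio 0.658). Zbtb16 was 302 CPM in AAV-GFP-2011, against 107 to 178 CPM in the others (gap ratio 0.637), and that mouse also had the lowest RNA integrity number, 5.7.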

How the results depend on the processing

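Of 220 values recomputed for single genes, 219 kept their direction and their side of the threshold, and the exception was Zbtb16, which DESeq2 called (adjusted p = 0.00851). The count of the 10 genes with an adjusted p under 0.05 was 0 in each fit other than DESeq2, where it was 1. The count lower at an unadjusted p under 0.05 was 3 to 7 when 1 mouse was left out, with 7 without AAV-Notum-2034 (7.11% of all genes were lower at that limit) or AAV-Notum-2042 (13.4%). The count that separated the groups completely was 0 to 1 when 1 mouse was left out, with 1 (Sgk1) without AAV-GFP-2011 (0.783% of all genes) and 1 (Zbtb16) without AAV-GFP-2012 (0.731%) or without AAV-Notum-2034 (0.834%). It was 1 (Sgk1) without both AAV-GFP-2011 and AAV-GFP-2014 (0.969%), chosen after seeing the data. Of the correlated pairs, 1 passed by Spearman's rho and 0 without 2 mice. The cause of these shifts was not tested. The count of other targets lower at an unadjusted p under 0.05 was 10 to 14 over all fits, in which 4.95% to 13.6% of all genes were lower. Of these 26 genes, edgeR gave an adjusted p under 0.05 to 3 without AAV-GFP-2022, 2 without AAV-GFP-2013, 1 without AAV-Notum-2042 and 1 with the stricter filter, against 0 in its other fits. Of all genes, edgeR called 146, 18, 8 and 14 as lower in these 4 fits, against 8 with all mice. Scaling by RLE size factors moved the median of all genes to 0.012. No paired analysis was possible because the groups share no replicate numbers. With 6 mice per group, the adjusted p of Zbtb16 ran from 0.077 to 0.298 when 1 mouse was left out.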
